A study of Mus musculus with 9 samples.

Results

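The transcripts described are those of *Tnf*, *Il1a*, *Il1b*, *Il6*, *Il10*, *Il1rn*, *Osm*, *Tnfsf9*, *Tnfrsf1b*, and *Il10ra*, which encode TNF-α, interleukins (IL), their antagonist, and 2 of their receptors. These genes were chosen by name, with earlier results of these data known. They are 10 of the 50559 genes listed in the count data, and all 10 were among the 16618 genes that passed the filter on low counts. RNA was sequenced from CD45+CD11b+ myeloid cells sorted from the quadriceps of *mdx* mice, a mouse strain without dystrophin that models Duchenne muscular dystrophy. CD45 is carried by all leukocytes and CD11b by macrophages, monocytes, neutrophils, and other myeloid cells. The mice were given vehicle (a sucralose drink), spironolactone, which blocks the mineralocorticoid receptor (MR), or prednisolone, a glucocorticoid receptor agonist, over 7 days until collection at the age of 4.5 weeks. The mice of all 3 groups carried the *mdx* mutation, and muscle of healthy mice was not analysed here. Each group had 3 libraries, and each library held cells pooled from 3 mice of that group, so that the replicate is a pool. *P* values weigh a difference between groups against the spread between pools, which the fit reported here estimated over all 9 libraries together.

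TNF-α, IL-1α, IL-1β, and IL-6 are inflammatory cytokines that activated macrophages make in large amounts, largely through the transcription factor NF-κB, and IL-1α and IL-1β act through the same receptor. IL-10 dampens macrophage activation through the IL-10 receptor and STAT3, and the IL-1 receptor antagonist, encoded by *Il1rn*, occupies the IL-1 receptor without signaling. In dystrophic muscle, infiltrating myeloid cells are a main source of these cytokines. Many cytokine mRNAs carry AU-rich elements in the 3′ UTR, short repeats of ATTTA in the DNA strand, where proteins such as tristetraprolin, encoded by *Zfp36*, bind and speed up mRNA decay.

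The cytokine transcripts differed in how many such repeats they carry. In the canonical 3′ UTR annotated by GENCODE, ATTTA was found at 8 overlapping or separate positions in *Tnf* (764 bases), 6 in *Il6* (427 bases), 6 in *Il10* (706 bases), 6 in *Osm* (1017 bases), 5 in *Il1a* (2340 bases), 4 in *Il1b* (459 bases), 2 in *Tnfsf9* (265 bases), and 0 in *Il1rn* (1864 bases). The receptor transcripts had 5 in *Tnfrsf1b* (3419 bases) and 3 in *Il10ra* (1693 bases). The longer form TTATTTATT, which contains ATTTA, was found 5 times in *Tnf* and 3 times in *Il10ra* and in no other member, against 8.36% of 20718 3′ UTRs of protein-coding genes with at least 1 copy (7.73% of the 14269 between 265 and 3419 bases long). At least 1 ATTTA was present in 67.5% of all these 3′ UTRs. The 30 bases with the most copies of ATTTA are shown for some of the members (GRCm39, sense strand, 5′ to 3′), because the mRNA of the ATTTA-binding protein tristetraprolin is described further on. *Il1a*, *Tnfsf9*, and *Tnfrsf1b* also had matches and are not shown. For *Il10*, no stretch of 30 bases held more than 1 copy, and the first copy is shown. Capitals mark ATTTA, only the sense strand was searched, and a match is a stretch of letters, not a measured binding site.
*Tnf*, chr17:35418654-35418683, minus strand: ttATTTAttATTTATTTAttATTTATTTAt
*Il1b*, chr2:129206722-129206751, minus strand: cttacctATTTATTTAtgtATTTAttgatt
*Il6*, chr5:30224682-30224711, plus strand: atttttaATTTAttgataATTTAaataagt
*Osm*, chr11:4190945-4190974, plus strand: ttttatATTTAtaaggcctATTTAtaatgt
*Il10*, chr1:130952121-130952150, plus strand: ctctctccgaaatATTTAttacctctgata
*Il10ra*, chr9:45165411-45165440, minus strand: tttATTTATTTAtttgctcacttATTTAtt

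The promoters of 9 members, taken as 250 bases before to 50 bases after the annotated start, were searched on both strands for the NF-κB consensus and for the AP-1 motif TGANTCA. The NF-κB consensus was found in 2 of the 9, *Il6* and *Il10ra*, at 44 and 88 bases before the start, and in 8.98% of 21593 promoters of protein-coding genes. TGANTCA was found in *Il6* and *Il1rn* and in 7.11% of the promoters. The 250 bases upstream of *Il6*, the better-known NF-κB target of the 2, are shown with the NF-κB consensus in capitals (GRCm39, sense strand). The absence of these letters from a window of this length says nothing about the factor at other positions.
*Il6*, chr5:30217862-30218111, plus strand: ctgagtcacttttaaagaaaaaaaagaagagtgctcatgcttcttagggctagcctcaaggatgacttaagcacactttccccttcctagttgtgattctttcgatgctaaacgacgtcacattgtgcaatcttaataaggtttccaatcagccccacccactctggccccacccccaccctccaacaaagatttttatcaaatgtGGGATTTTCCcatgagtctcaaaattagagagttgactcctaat

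The libraries held 31469815 to 32943512 counts on genes, and the members had between 91 (*Il6*) and 33164 (*Il1b*) counts in a library. Macrophage markers dominated the sorted cells, with a summed level of the 8 genes of 8161 to 9457 CPM (counts scaled to the TMM-normalized library total) with vehicle, 9088 to 10062 CPM with spironolactone, and 7674 to 8485 CPM with prednisolone. The sum was entirely higher with spironolactone than with prednisolone. By gene, 3 of the 8 were entirely higher with spironolactone than with prednisolone, where 15.1% of all genes were. Of the 8, 4 had negative log2 fold changes between the drugs (median 0.12), where 46.6% of all genes did. *Cd68* had a median level of 2880.0 CPM, while the 6 T cell markers summed to 11.8 to 35.1 CPM, most of it *Cd4*, which macrophages can also express, at 9.96 to 30.2 CPM. Neutrophil markers (11 genes) summed to 4985 CPM in vehicle 3 and 3708 CPM in spironolactone 3, against 802 to 1628 CPM in the other 7 libraries. Because these are bulk libraries, fewer cells of a type and less RNA per cell cannot be told apart.

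Levels of different genes were compared per exon length as TPM, a level scaled to exon length and library total. In vehicle-treated mice, *Il1b* had the highest level of the 10, at 1250.2 ± 383 TPM (mean ± SD, *n* = 3). *Osm*, encoding oncostatin M, a cytokine of the IL-6 family, followed at 621 ± 66.4 TPM, and *Tnfrsf1b*, encoding TNF receptor 2, was at 585 ± 54.4 TPM. The vehicle ranges of *Osm* and *Tnfrsf1b* overlapped, and those of *Il1b* and *Osm* did not. *Tnf* was next at 445 ± 18.6 TPM, apart from *Tnfrsf1b* above it and from *Il1rn* below it. The ranges of *Il1rn* (335 ± 90.1 TPM), *Il10ra* (222 ± 31.9 TPM), and *Tnfsf9* (189.9 ± 40.8 TPM) overlapped between neighbors. *Il10* was at 82.9 ± 19.8 TPM, *Il1a* at 28.7 ± 8.65 TPM, and *Il6* lowest at 12.8 ± 8.32 TPM, and these 3 did not overlap with their neighbors in the order. Transcripts of the antagonist *Il1rn* were thus below those of *Il1b*, which it opposes, in every vehicle library.

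**Figure D1:**
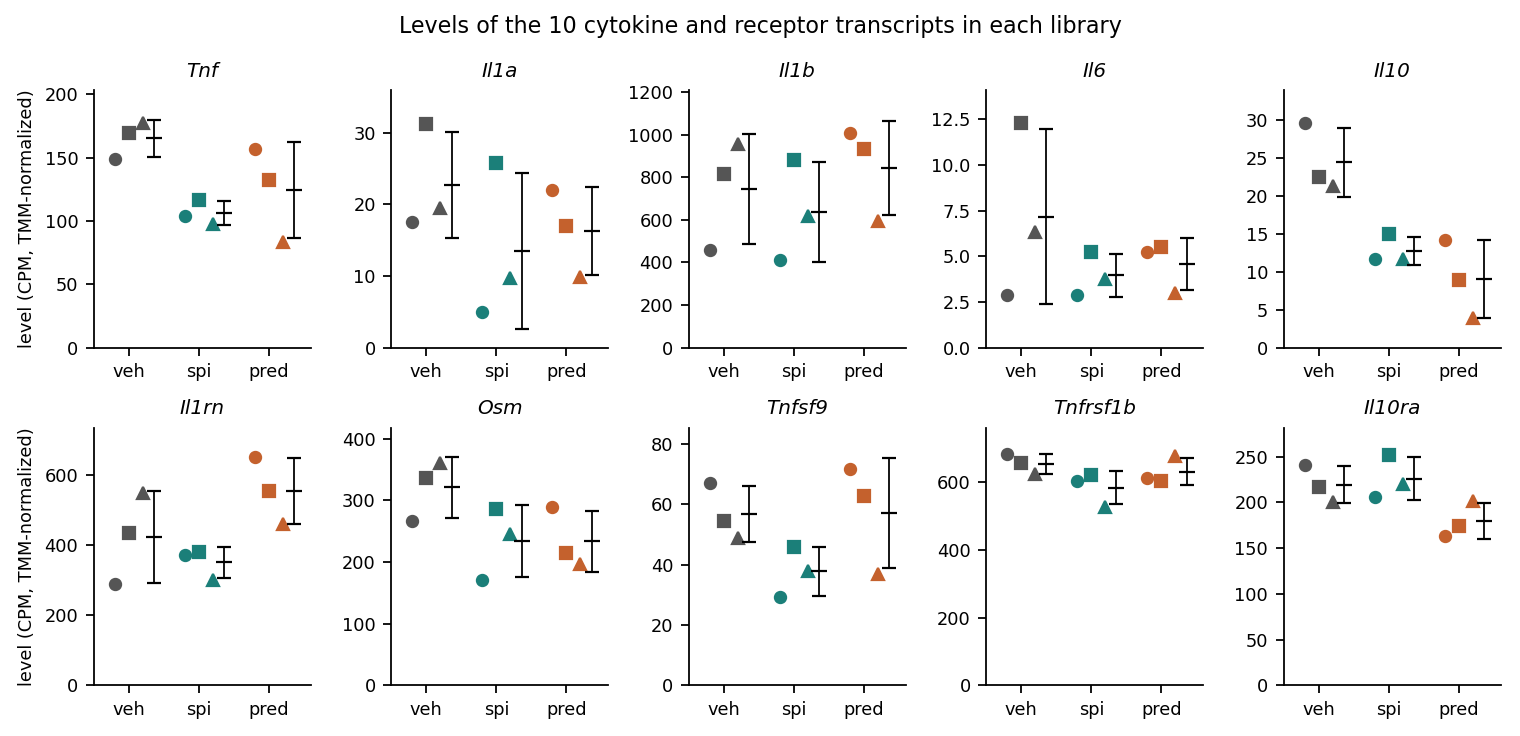
Level of each member in each library (y axis, TMM-normalized CPM, starting at 0) in vehicle (veh), spironolactone (spi), and prednisolone (pred) groups, with circles, squares, and triangles for libraries 1, 2, and 3 and bars for the mean ± SD (*n* = 3 pools). All 6 treated libraries lie below all vehicle libraries for *Il10*, whereas the 3 groups overlap for *Il1b* between 413 and 1007 CPM.

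The comparison of each drug with vehicle asks whether MR antagonism or glucocorticoid treatment changed cytokine transcripts in muscle myeloid cells. With prednisolone, 7 of the 10 members had a lower mean than with vehicle and *Il10* was the only member whose 3 libraries all lay below the 3 vehicle libraries. With spironolactone, 9 of the 10 were lower, all except *Il10ra*, and the libraries of *Tnf*, *Il10*, *Tnfsf9*, and *Tnfrsf1b* lay entirely below those of vehicle. No member passed an adjusted *P* of 0.05 in either comparison with the quasi-likelihood test of edgeR.

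With prednisolone, the test called 0 of the 10 members at an adjusted *P* under 0.05, where it called 1.76% of all genes, and 3 of 10 (*Il10*, *Osm*, *Il10ra*) at an unadjusted *P* under 0.05, where it called 14.2%. DESeq2 and limma-voom each called 1 member, *Il10*. The count of members entirely below vehicle was 1, where 9.27% of all genes were, and the count entirely above was 0, where 10.4% were. The median log2 fold change was -0.35 over the members and -0.01 over all genes tested.

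With spironolactone, 0 members passed the adjusted threshold, which 0.0181% of all genes (3 genes) passed, and 4 (*Tnf*, *Il10*, *Osm*, *Tnfsf9*) had an unadjusted *P* under 0.05, where 9.29% of all genes did. DESeq2 called 1 member, *Tnf*, and limma-voom called 0. The 4 members entirely below vehicle compare with 6.5% of all genes, and the 0 entirely above with 6.99%. The median log2 fold change was -0.52 over the members and 0.00 over all genes tested.

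*Tnf* encodes TNF-α, which acts on most cell types through TNF receptors 1 and 2. Its levels were 149, 169, and 178 CPM with vehicle, 104, 117, and 98.1 CPM with spironolactone, and 157, 133, and 83.1 CPM with prednisolone. All spironolactone libraries lay below all vehicle libraries, while the prednisolone libraries spread from within the vehicle range to below every spironolactone library. On the log2 scale, the spironolactone value was -0.64 ± 0.19 (SE) relative to vehicle (95% interval -1.05 to -0.22, unadjusted *P* = 0.00619, adjusted *P* = 0.277 by edgeR) and the prednisolone value -0.41 ± 0.19 (adjusted *P* = 0.354 by edgeR). The prednisolone value was -0.62 without prednisolone replicate 1 and -0.19 without prednisolone replicate 3. DESeq2 called the spironolactone difference (adjusted *P* = 0.0219), and so did edgeR without prednisolone replicate 3, a library of neither group compared that enters the shared estimate of spread (adjusted *P* = 0.0475), while the other fits without a library gave up to 0.690.

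*Tnfrsf1b*, the gene of TNF receptor 2, which leukocytes express, varied least among the members. It was at 683, 658, and 624 CPM with vehicle, 603, 622, and 528 CPM with spironolactone, and 612, 605, and 679 CPM with prednisolone. The spironolactone libraries were all below vehicle, with the highest of them at 622 and the lowest vehicle library at 624 CPM. Its log2 fold change with spironolactone was -0.17 ± 0.095 (95% interval -0.37 to 0.04, adjusted *P* = 0.646 by edgeR) and -0.05 ± 0.095 with prednisolone (-0.26 to 0.15, adjusted *P* = 0.865 by edgeR). The exons of *Tnfrsf1b* share 184 bases with *Gm68886* on the opposite strand.

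*Tnfsf9* encodes the ligand 4-1BBL of the TNF superfamily, a costimulator of T cells. It was at 67.0, 54.5, and 49.0 CPM with vehicle, 29.4, 45.9, and 38.0 CPM with spironolactone, and 71.9, 62.8, and 36.8 CPM with prednisolone. The spironolactone libraries lay below vehicle, and prednisolone 3 lay apart from the other prednisolone libraries, which were within or above the vehicle range. Relative to vehicle, the log2 fold change with spironolactone was -0.59 ± 0.25 (adjusted *P* = 0.525 by edgeR) and that with prednisolone 0.01 ± 0.25 (95% interval -0.56 to 0.58, adjusted *P* = 0.993 by edgeR), and the sign of the latter turned with the way of fitting. The exons of *Tnfsf9* share 192 bases with *Gm11110* on the opposite strand, and no source used here states whether counting used the strand.

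*Il1b* encodes IL-1β, which is made as a precursor and released after cleavage by caspase-1. Its levels were 459.5, 816, and 958 CPM with vehicle, 413, 881, and 617 CPM with spironolactone, and 1007, 935, and 594 CPM with prednisolone. The 3 groups overlapped over most of their range, and the highest library had 2.09 times the level of the lowest with vehicle, 2.13 times with spironolactone, and 1.70 times with prednisolone. The log2 fold change was 0.18 ± 0.37 with prednisolone (95% interval -0.69 to 1.06, adjusted *P* = 0.878 by edgeR) and -0.23 ± 0.37 with spironolactone (-1.10 to 0.65, adjusted *P* = 0.913 by edgeR). These intervals include both a fall and a rise of appreciable size, so that the direction for *Il1b* was not resolved. Without vehicle replicate 1, the prednisolone value was -0.07, and without spironolactone replicate 1, the spironolactone value was 0.01. The exons of *Il1b* share 95 bases with *Il1bos* on the opposite strand.

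*Il1a* encodes IL-1α, an alarm signal of damaged cells as well as a secreted cytokine. It was at 17.5, 31.3, and 19.4 CPM with vehicle, 4.97, 25.8, and 9.69 CPM with spironolactone, and 22.0, 17.0, and 9.86 CPM with prednisolone. Spironolactone 2 was 5.19 times as high as spironolactone 1, and all groups overlapped. Its log2 fold changes from vehicle were -0.75 ± 0.62 for spironolactone (adjusted *P* = 0.786 by edgeR) and -0.48 ± 0.62 for prednisolone (adjusted *P* = 0.802 by edgeR), the widest errors among the members. Without spironolactone replicate 2 the spironolactone value was -1.63, and without spironolactone replicate 1 it was -0.36. The prednisolone value was -0.18 without vehicle replicate 2 and -0.76 without prednisolone replicate 1. The exons of *Il1a* share 477 bases with *Gm14023* on the opposite strand.

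*Il1rn*, which encodes the antagonist that competes with both IL-1 forms, had a higher mean than vehicle with prednisolone and a lower mean with spironolactone. It was at 288, 433, and 549 CPM with vehicle, 370.4, 380.5, and 300.4 CPM with spironolactone, and 649.6, 553, and 461 CPM with prednisolone. All 3 prednisolone libraries were above all 3 spironolactone libraries, and both drug groups overlapped with vehicle, whose own libraries differed by up to 1.91 times. Prednisolone libraries had a log2 fold change from vehicle of 0.39 ± 0.21 (95% interval -0.08 to 0.86, adjusted *P* = 0.456 by edgeR) and spironolactone libraries of -0.27 ± 0.21 (-0.74 to 0.20, adjusted *P* = 0.756 by edgeR). Without vehicle replicate 1 these values were 0.18 and -0.49, and without vehicle replicate 3 they were 0.63 and -0.04.

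*Il6* encodes IL-6, which acts on muscle, liver, and immune cells. It was at 2.86, 12.3, and 6.33 CPM with vehicle, 2.88, 5.25, and 3.74 CPM with spironolactone, and 5.25, 5.53, and 2.97 CPM with prednisolone. Vehicle 1 was at the level of the lowest treated libraries, and vehicle 2 and 3 exceeded all treated libraries. For *Il6*, the log2 fold change from vehicle was -0.86 ± 0.47 for spironolactone (adjusted *P* = 0.637 by edgeR) and -0.64 ± 0.47 for prednisolone (adjusted *P* = 0.598 by edgeR). Without vehicle replicate 2, these values were -0.21 and -0.0012.

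*Osm* encodes oncostatin M, a product of macrophages and neutrophils that acts through gp130 on muscle and stromal cells. It was at 266, 337, and 360.2 CPM with vehicle, 171, 286, and 246 CPM with spironolactone, and 290.0, 215, and 196 CPM with prednisolone. In each drug group, only the highest library reached the vehicle range. The values on the log2 scale were of similar size, -0.45 ± 0.20 with spironolactone (unadjusted *P* = 0.0468, adjusted *P* = 0.530 by edgeR) and -0.46 ± 0.20 with prednisolone (unadjusted *P* = 0.0446, adjusted *P* = 0.334 by edgeR). The spironolactone value was -0.27 without spironolactone replicate 1 and -0.62 without spironolactone replicate 2. The prednisolone value was -0.64 without prednisolone replicate 1 and -0.34 without prednisolone replicate 3.

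*Il10* encodes IL-10, the main cytokine by which macrophages restrain inflammation. Of the 10 members, it had the largest log2 fold change from vehicle with prednisolone, in the fit reported, the 8 other ways of fitting, and the 9 fits without a library. With spironolactone the same held in the fit reported, in 7 of the 8, and in 7 of the 9. The exceptions were limma-voom (*Il1a* at -1.03 and *Il10* at -0.93), the fit without spironolactone replicate 2 (*Il1a* at -1.63 and *Il10* at -1.07), and the fit without vehicle replicate 1 (*Il6* at -1.24 and *Il10* at -0.78). *Il10* was at 29.6, 22.5, and 21.3 CPM with vehicle, 11.6, 14.95, and 11.7 CPM with spironolactone, and 14.2, 8.99, and 3.95 CPM with prednisolone. All 6 treated libraries lay below all vehicle libraries, and the highest prednisolone library was 3.59 times the lowest. With prednisolone, its log2 fold change was -1.44 ± 0.38, a fitted level of 0.369 of vehicle (95% interval -2.32 to -0.55, unadjusted *P* = 0.00548, adjusted *P* = 0.127 by edgeR). With spironolactone it was -0.94 ± 0.38, a fitted level of 0.522 of vehicle (-1.80 to -0.07, unadjusted *P* = 0.0373, adjusted *P* = 0.5002 by edgeR). The prednisolone difference was past the threshold with DESeq2 (adjusted *P* = 0.0292) and limma-voom (0.0243), and with edgeR without prednisolone replicate 1 (0.0185) or prednisolone replicate 3 (0.0410), and not with edgeR without any of the other 7 libraries (up to 0.355).

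*Il10ra* encodes the ligand-binding chain of the IL-10 receptor. It was at 241, 217, and 201 CPM with vehicle, 206, 251, and 221 CPM with spironolactone, and 163, 174, and 201 CPM with prednisolone. The lower end of the vehicle group and the upper end of the prednisolone group met at 201 CPM, and the spironolactone range overlapped with most of the vehicle range. Compared with vehicle, it was at -0.29 ± 0.11 on the log2 scale with prednisolone (95% interval -0.53 to -0.06, unadjusted *P* = 0.0188, adjusted *P* = 0.229 by edgeR) and 0.04 ± 0.11 with spironolactone (-0.19 to 0.28, adjusted *P* = 0.954 by edgeR). With prednisolone, the transcripts of the cytokine and of its receptor chain both had lower means than with vehicle.

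**Figure D2:**
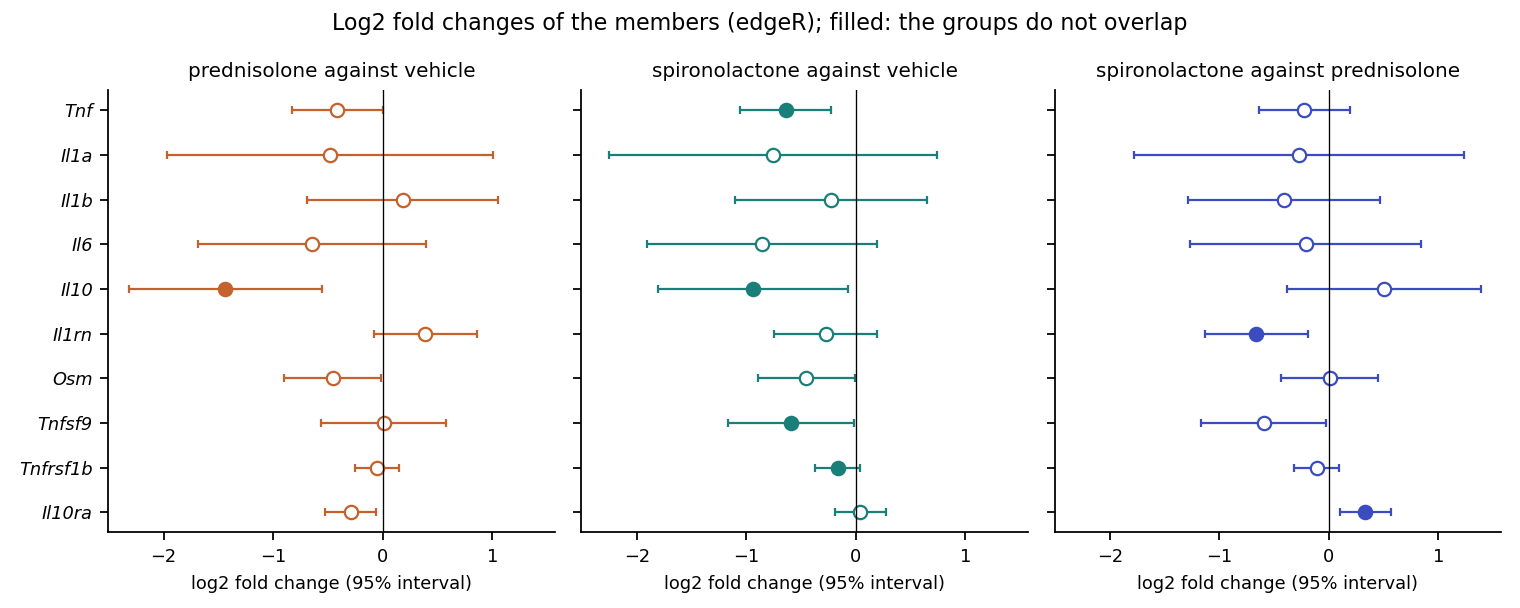
Log2 fold change of each member (x axis) with its 95% interval from edgeR for the 3 comparisons, where filled points mark members whose 3 libraries in 1 group all lie to the same side of the other group. *Il10* has the lowest value with prednisolone (-1.44) and with spironolactone (-0.94), and *Tnfrsf1b* and *Il10ra* have the shortest intervals.

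The direct comparison of spironolactone with prednisolone asks where the drugs differed from each other. *Il1rn* was lower with spironolactone than with prednisolone (log2 fold change -0.66 ± 0.21, 95% interval -1.13 to -0.19, unadjusted *P* = 0.0106, adjusted *P* = 0.0994 by edgeR), and *Il10ra* was higher (0.33 ± 0.11, interval 0.10 to 0.57, unadjusted *P* = 0.00894, adjusted *P* = 0.0915 by edgeR). These were the 2 members whose libraries did not overlap between the drugs, and neither passed the adjusted threshold in the edgeR fit reported. *Il1rn* passed by edgeR with only the 2 groups compared (adjusted *P* = 0.00913) and without a low-count filter (1.83e-07). *Tnfsf9* had a mean of 37.8 ± 8.23 CPM with spironolactone and 57.1 ± 18.2 CPM with prednisolone (log2 fold change -0.60 ± 0.25, unadjusted *P* = 0.0432, adjusted *P* = 0.206 by edgeR). For *Tnf* (-0.23, interval -0.64 to 0.19), *Il10* (0.50, -0.39 to 1.38), and *Osm* (0.01, -0.44 to 0.45) the intervals of the difference between the drugs included 0. Without prednisolone replicate 1, the difference was -0.02 for *Tnf* and 0.98 for *Il10*. Without prednisolone replicate 3, it was -0.45 for *Tnf* and 0.14 for *Il10*.

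Of the members, 0 passed the adjusted threshold between the drugs with edgeR, where 5.17% of all genes did, and 3 (*Il1rn*, *Tnfsf9*, *Il10ra*) had an unadjusted *P* under 0.05, where 22.5% of all genes did. DESeq2 called *Il1rn* (adjusted *P* = 0.00661) and *Tnfsf9* (0.0407), and limma-voom called 0 members. The 1 member entirely lower with spironolactone compares with 15.2% of all genes, and the 1 entirely higher with 15.1%. By the edgeR fits that leave out a library, *Il1rn* passed without vehicle replicate 1 (adjusted *P* = 0.0118) or vehicle replicate 3 (0.0389), *Il10ra* without vehicle replicate 1 (0.0404), and *Tnfsf9* without prednisolone replicate 3 (0.0330), and in the remaining fits none of the 3 passed.

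**Figure D3:**
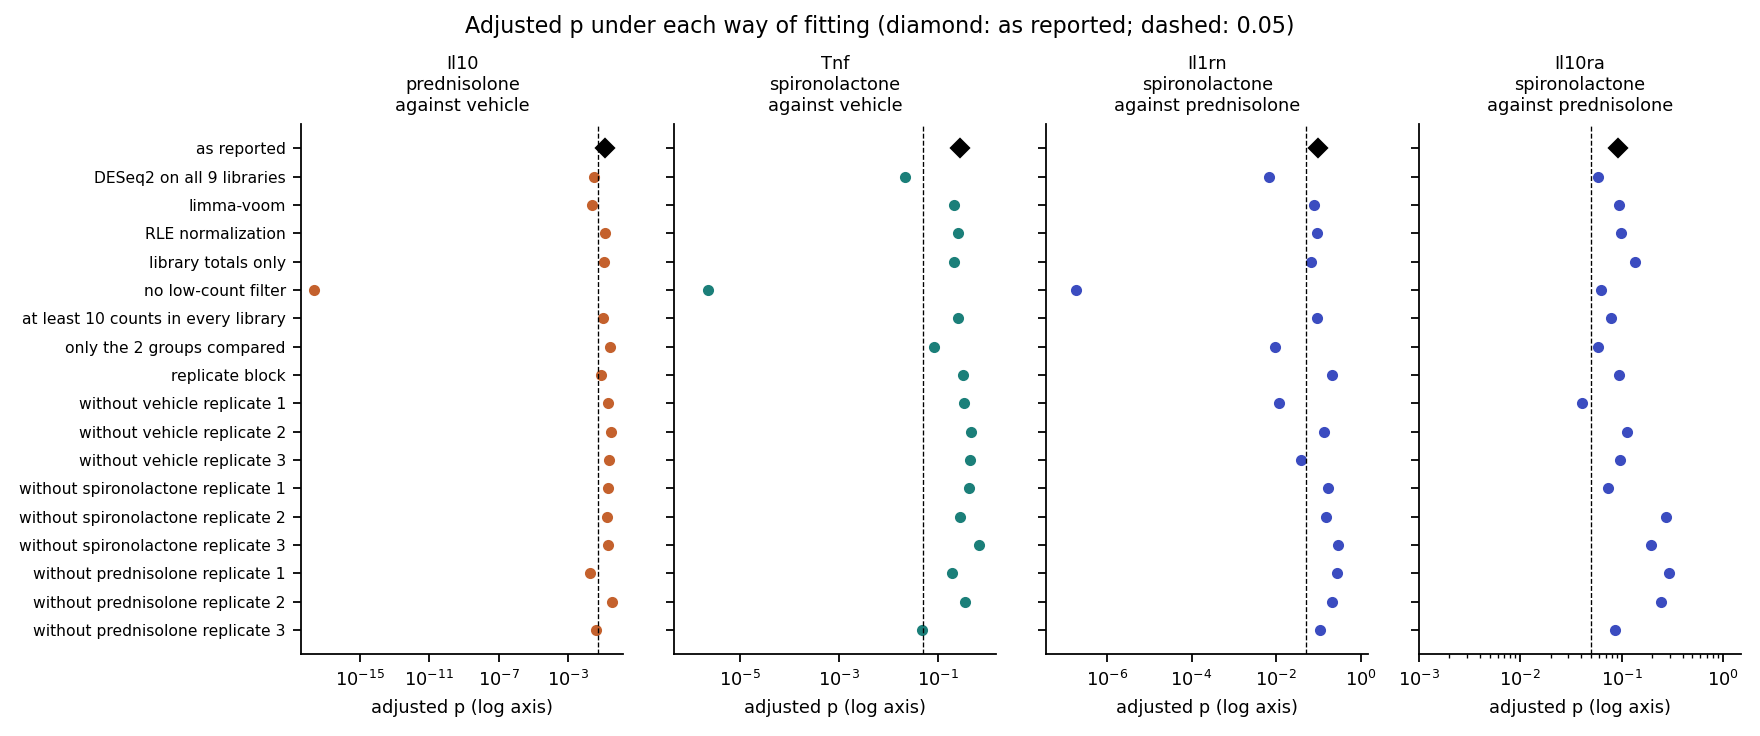
Adjusted *P* (x axis, log scale) of *Il10*, *Tnf*, *Il1rn*, and *Il10ra* in the comparison named above each panel, for the fit as reported (diamond), 8 other ways of fitting, and 9 fits that each leave out 1 library, with the threshold of 0.05 as a dashed line. The edgeR fit without a low-count filter stands far to the left for *Il10* (adjusted *P* = 2.2e-18), *Tnf*, and *Il1rn*, and the remaining fits lie on both sides of the line.

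Within a group, the same library was often highest or lowest for several members. Spironolactone 2 had the highest level of its group for all 10 members (30.2% of all genes) and prednisolone 1 for 7 (35.2%). Prednisolone 3 had the lowest level of its group for 8 members (33.7% of all genes), spironolactone 1 for 7 (37.7%), and vehicle 1 for 6 (39.9%), while vehicle 1 was also the highest of its group for 4. Over the 9 libraries, the log2 CPM of the cytokines were mostly positively correlated, from *Osm* and *Il1a* (Pearson's *r* = 0.84) and *Tnf* with *Il10* and with *Osm* (*r* = 0.79 each) to *Il10* with *Il1b* (*r* = 0.07) and with the antagonist *Il1rn* (*r* = -0.23). The receptor genes differed from this, with *Tnfrsf1b* at *r* = -0.10 to 0.33 with the other members and *Il10ra* at -0.83 (*Il1rn*) to 0.36 (*Il10*). These correlations describe 9 libraries that include the differences between groups, and no *P* value is given for them.

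Of all tested genes, *Coq10b* (*r* = 0.97), *Nfkbiz* (*r* = 0.97), which encodes the NF-κB regulator IκBζ, and *Nup43* (*r* = 0.97) had the levels most like those of *Tnf* over the 9 libraries. The genes most like *Il1b* were *Trem1* (*r* = 0.96), a receptor gene of neutrophils and monocytes, *Hcar2* (*r* = 0.96), a niacin receptor gene, and *Egr1* (*r* = 0.96), an immediate early transcription factor gene. The genes most like *Il10* were *Zfp36* (*r* = 0.99), *Pim1* (*r* = 0.97), and *Ly6g5b* (*r* = 0.97), the last at no more than 1.34 CPM. These genes were picked as the highest of 16618 over 9 libraries, so that the values are a description only.

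The genes around these cytokines were read from lists of their pathways. For comparison with the counts that follow, 14.2% of all genes had an unadjusted *P* under 0.05 with prednisolone and 9.29% with spironolactone, and 52.2% and 50% had negative log2 fold changes. At the adjusted threshold by edgeR, 1.76% of all genes passed with prednisolone, 0.0181% with spironolactone, and 5.17% between the drugs. Over all lists, 2 of the 116 tested genes (1.72%) passed with prednisolone, 0 with spironolactone, and 4 (3.45%) between the drugs. Of 15 NF-κB feedback genes, which encode inhibitors and targets that NF-κB itself induces, 1 passed the adjusted threshold in a comparison with vehicle, *Zfp36*, the gene of tristetraprolin. It was at 3281, 3053, and 2984 CPM with vehicle, 2183, 2440.3, and 2331 CPM with spironolactone, and 2472, 1900.1, and 1517 CPM with prednisolone. All treated libraries lay below all vehicle libraries, the arrangement seen for *Il10*. *Zfp36* fell with prednisolone (log2 fold change -0.66 ± 0.14, adjusted *P* = 0.0337 by edgeR), a call lost without vehicle replicate 2 (adjusted *P* = 0.0920) or 3 (0.0706), spironolactone replicate 2 (0.0549) or 3 (0.0534), or prednisolone replicate 2 (0.162) or 3 (0.107), and also with only the 2 groups compared (0.0733), and with spironolactone it was at -0.42 ± 0.14 (adjusted *P* = 0.340 by edgeR). All 15 feedback genes had negative log2 fold changes with spironolactone (median -0.42, against 0.00 over all genes), with 0 past the adjusted threshold by edgeR, 3 by DESeq2, 0 by limma-voom, and 9 at an unadjusted *P* under 0.05. With prednisolone, 10 of the 15 were negative (median -0.18, against -0.01), with 5 lower and 1 higher at an unadjusted *P* under 0.05. For spironolactone against prednisolone, 11 of the 15 were negative (median -0.21, against 0.03), with 0 past the adjusted threshold by edgeR. At an unadjusted *P* under 0.05, 5 were lower and 1 higher with spironolactone than with prednisolone.

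**Figure D4:**
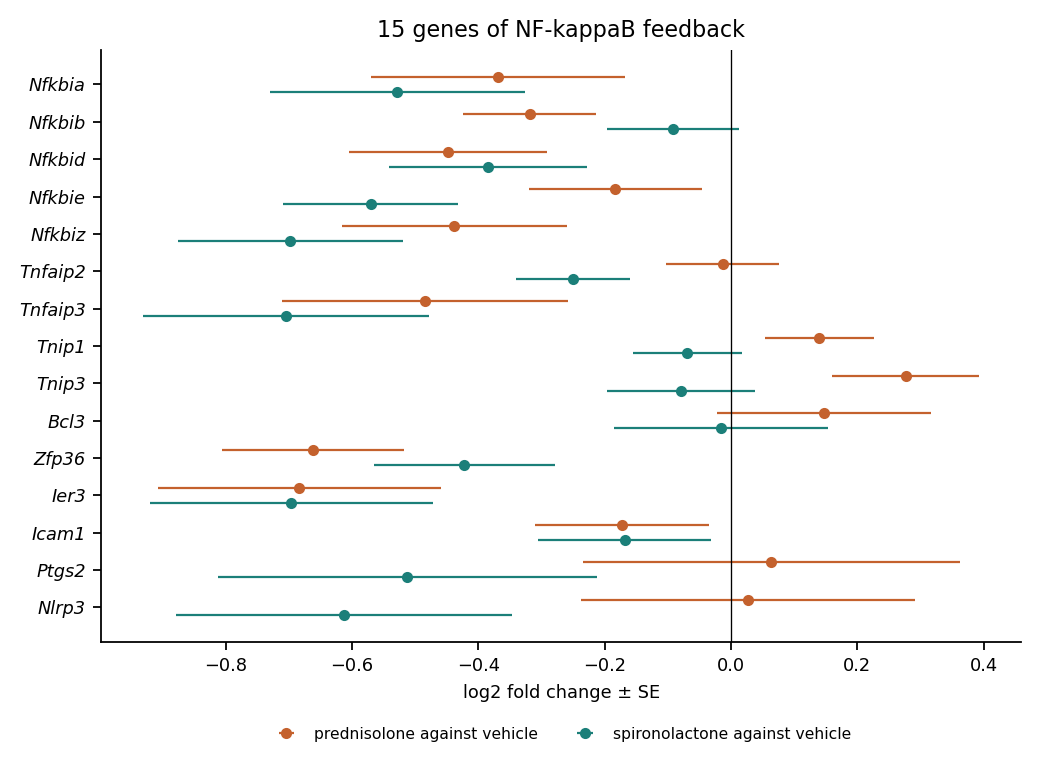
Log2 fold change ± SE (x axis, edgeR) of 15 NF-κB feedback genes with prednisolone and with spironolactone against the same vehicle libraries. All 15 spironolactone values lie below 0, and 10 of the 15 prednisolone values do, of which *Zfp36* passed the adjusted threshold.

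The 21 genes of the TNF receptor complexes and of NF-κB itself had medians nearer 0. With spironolactone, 18 of 21 had negative log2 fold changes (median -0.11, 4 lower at an unadjusted *P* under 0.05), and with prednisolone 12 of 21 did (median -0.02, 1 lower). Entirely below vehicle were 6 with spironolactone (6.5% of all genes) and 3 with prednisolone (9.27%). For spironolactone against prednisolone, 17 of 21 were negative (median -0.11, with 46.6% of all genes negative). Of these genes, 8 were entirely lower (15.2% of all genes) and 6 were lower and 0 higher at an unadjusted *P* under 0.05 (22.5%). By edgeR and limma-voom, 0 passed the adjusted threshold in any comparison, and by DESeq2 1 did with spironolactone, 0 with prednisolone, and 1 between the drugs. *Cflar*, which encodes the caspase-8 inhibitor c-FLIP, was at 98.0 ± 8.79 CPM with vehicle and 72.3 ± 8.04 CPM with spironolactone (log2 fold change -0.44 ± 0.10, adjusted *P* = 0.152 by edgeR and 0.0192 by DESeq2). *Birc3*, which encodes the ubiquitin ligase cIAP2 of the TNF receptor complex, was at 123 ± 7.59 CPM with vehicle and 96.9 ± 10.46 CPM with spironolactone (-0.35 ± 0.097, adjusted *P* = 0.209 by edgeR).

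Among the other TNF receptor superfamily genes, 23 of 27 were tested. With prednisolone, edgeR called 1, which was lower, where it called 1.76% of all genes, and DESeq2 called 2. The gene called by edgeR was *Tnfrsf12a*, the gene of the TWEAK receptor Fn14, at 17.6 ± 0.184 CPM with vehicle, 11.1 ± 1.56 CPM with prednisolone, and 11.1 ± 1.87 CPM with spironolactone. Both drugs gave a log2 fold change of -0.66 ± 0.14, and edgeR gave an adjusted *P* of 0.0347 for prednisolone and 0.129 for spironolactone, while DESeq2 also called the spironolactone difference (0.00642). The prednisolone call was lost without vehicle replicate 2 (adjusted *P* = 0.107) or 3 (0.0869) and without prednisolone replicate 2 (0.185) or 3 (0.146).

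Between the drugs, *Cd40*, the gene of a costimulatory receptor of macrophages, dendritic cells, and B cells, was higher with spironolactone, at 20.1 ± 2.37 CPM against 11.1 ± 2.27 CPM with prednisolone (log2 fold change 0.85 ± 0.17, adjusted *P* = 0.0119 by edgeR). Markers of B cells and T cells were also higher with spironolactone, as given further on. *Tnfrsf23*, the gene of a decoy receptor for TRAIL, was lower with spironolactone, at 8.74 ± 1.68 CPM against 16.7 ± 0.700 CPM (-0.93 ± 0.23, adjusted *P* = 0.0410 by edgeR). The *Cd40* call was lost without spironolactone replicate 2 (adjusted *P* = 0.0552) or prednisolone replicate 2 (0.0595), and the *Tnfrsf23* call without vehicle replicate 2 (0.0579) or any of the 6 treated libraries (0.0612 to 0.128). Against vehicle, *Tnfrsf23* was higher with prednisolone by DESeq2 (0.72, adjusted *P* = 0.0407) and, without vehicle replicate 3, by edgeR (1.04, adjusted *P* = 0.0329).

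Of the IL-1 family list, 19 of 24 genes were tested, and edgeR called 1 between the drugs, where it called 5.17% of all genes, and 0 with either drug against vehicle (3 with each at an unadjusted *P* under 0.05). DESeq2 called 2 between the drugs, 1 with prednisolone, and 0 with spironolactone, and limma-voom 1, 0, and 0. The gene called by edgeR was *Il18bp*, the gene of a soluble inhibitor of IL-18. It was at 21.0 ± 1.40 CPM with spironolactone and 13.5 ± 2.79 CPM with prednisolone (log2 fold change between the drugs 0.63 ± 0.15, adjusted *P* = 0.0322 by edgeR), with vehicle between them at 18.6 ± 2.94 CPM. The call was lost without any of the spironolactone libraries (adjusted *P* 0.0742 to 0.0853) or without prednisolone replicate 1 (0.119) or 2 (0.137). The list as a whole was centered on 0, with median log2 fold changes of -0.06 with prednisolone and -0.02 with spironolactone.

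The IL-10 family list does not hold *Il10* itself, which is described above. In the IL-6 and IL-10 family lists, 0 genes passed the adjusted threshold by edgeR in any comparison, while DESeq2 called 2 IL-6 list genes and 1 IL-10 list gene with prednisolone and 0 and 1 with spironolactone, and limma-voom called 1 IL-10 list gene with prednisolone. At an unadjusted *P* under 0.05, 2 of 15 IL-6 list genes were higher and 2 lower with prednisolone, and 1 was higher and 2 lower with spironolactone. *Pim1*, a kinase gene induced by STAT3, was at 544 ± 6.22 CPM with vehicle, 401 ± 29.97 CPM with spironolactone, and 374 ± 95.3 CPM with prednisolone (log2 fold change with prednisolone -0.54 ± 0.15, adjusted *P* = 0.0884 by edgeR). *Il27ra*, the IL-27 receptor gene, was at 4.61 ± 0.665 CPM with vehicle and 7.29 ± 1.13 CPM with prednisolone (0.66 ± 0.20, adjusted *P* = 0.128 by edgeR). Of 11 tested IL-10 list genes, *Il10* not among them, 1 was higher and 2 lower with prednisolone at an unadjusted *P* under 0.05, 1 of these being *Il10ra*. *Nfil3*, a transcription factor gene downstream of the IL-10 receptor, was at 142 ± 7.24 CPM with vehicle, 89.2 ± 9.52 CPM with spironolactone, and 87.8 ± 25.7 CPM with prednisolone (log2 fold change by edgeR -0.69 ± 0.17 for prednisolone at an adjusted *P* of 0.0639, and -0.67 ± 0.17 for spironolactone at 0.173). DESeq2 called *Nfil3* with prednisolone (adjusted *P* = 0.00160) and spironolactone (0.00636), and limma-voom with prednisolone (0.0415). Without prednisolone replicate 1, edgeR called *Nfil3* (-0.95, adjusted *P* = 0.00351) and *Pim1* (-0.74, adjusted *P* = 0.0171) with prednisolone. The IL-6 list genes called by DESeq2 were *Pim1* (adjusted *P* = 0.0107) and *Il27ra* (0.0482).

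Of the other interleukins, 6 of 22 genes were tested and 1 was called between the drugs by edgeR, where 5.17% of all genes were. *Il16*, the gene of a chemoattractant for CD4+ cells, was at 70.5 ± 9.07 CPM with spironolactone and 47.3 ± 4.41 CPM with prednisolone (log2 fold change between the drugs 0.58 ± 0.12, adjusted *P* = 0.0158 by edgeR). The call was lost without spironolactone replicate 2 (adjusted *P* = 0.0700) or 3 (0.0568) or prednisolone replicate 1 (0.0829) or 2 (0.0807). Of the other TNF superfamily ligands, 11 of 16 were tested and 0 were called by edgeR or limma-voom, with 1 called by DESeq2 between the drugs, and with 2 higher with spironolactone and 1 lower with prednisolone than with vehicle at an unadjusted *P* under 0.05. *Tnfsf10*, the gene of TRAIL, was at 6.45 ± 2.02 CPM with spironolactone and 3.63 ± 0.751 CPM with prednisolone (0.83 ± 0.28, adjusted *P* = 0.0948 by edgeR and 0.0444 by DESeq2), and *Tnfsf14*, the gene of LIGHT, at 15.5 ± 3.94 and 11.1 ± 2.52 CPM (0.49 ± 0.20, adjusted *P* = 0.161 by edgeR, and 0.0405 without spironolactone replicate 1).

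Genes that respond to cell isolation differed between the groups. A list of 12 immediate early and dissociation genes, *Zfp36* among them, summed to 13119 to 13762 CPM with vehicle, 10416 to 10905 CPM with spironolactone, and 6978 to 10426 CPM with prednisolone. All 12 had negative log2 fold changes with prednisolone (median -0.56) and 7 fell past the adjusted threshold by edgeR (2 without vehicle replicate 2, prednisolone replicate 2, or prednisolone replicate 3), while with spironolactone 10 of 12 were negative (median -0.34) and 0 passed by edgeR or limma-voom, with 2 by DESeq2 and 7 at an unadjusted *P* under 0.05. Between the drugs, 5 of the 12 were entirely higher with spironolactone (15.1% of all genes) and 3 had negative log2 fold changes (46.6% of all genes), with a median of 0.23. Of the 12, edgeR called 4 between the drugs (2 to 5 without a library). *Egr1* and *Zfp36*, named above as most like *Il1b* and *Il10*, belong to this list, and its part in the differences of the members was not tested.

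Markers of other cells also differed between the groups. Neutrophil markers had a median log2 fold change of -1.61 with prednisolone and -0.04 with spironolactone, with 0 of 11 called by edgeR or limma-voom and, with prednisolone, 1 by DESeq2 and 3 at an unadjusted *P* under 0.05, and the defining gene *Ly6g* ranged from 0.16 to 13.6 CPM. The prednisolone sums (836 to 1069 CPM) lay between those of vehicle 1 (802 CPM) and vehicle 2 (1079 CPM), and vehicle 3 was at 4985 CPM. Of the 11 markers, 1 was entirely below vehicle with prednisolone, where 9.27% of all genes were. Between the drugs, 7 of the 11 were entirely higher with spironolactone (median log2 fold change 1.62), where 15.1% of all genes were. Of the 11, 0 were called by edgeR, 2 by DESeq2, 1 by limma-voom, and 4 at an unadjusted *P* under 0.05. Without vehicle replicate 3, which had the highest neutrophil sum, the log2 fold changes with prednisolone were -0.35 for *Tnf*, -0.36 for *Osm*, -1.53 for *Il10*, 0.63 for *Il1rn*, 0.41 for *Il1b*, and -0.35 for *Il10ra*. With spironolactone they were -0.59 for *Tnf*, -0.37 for *Osm*, -1.03 for *Il10*, -0.04 for *Il1rn*, -0.0068 for *Il1b*, and -0.02 for *Il10ra*, which had a value above 0 with all libraries. Without spironolactone replicate 3, the spironolactone values were -0.59 for *Tnf*, -0.49 for *Osm*, -0.88 for *Il10*, -0.17 for *Il1rn*, and -0.20 for *Il1b*. NK cell markers (6 genes) summed to 6.48 to 10.6 CPM with vehicle, 11.2 to 19.3 CPM with spironolactone, and 4.77 to 8.82 CPM with prednisolone, and endothelial markers (6 genes) to 49.1 to 85.3, 108 to 168, and 62.3 to 86.3 CPM. Between the drugs, 4 of the 6 NK cell and 2 of the 6 endothelial markers were higher with spironolactone past the adjusted threshold by edgeR. The same held for 2 of the 6 T cell markers (26.6 to 35.1 CPM with spironolactone and 11.8 to 17.6 CPM with prednisolone in sum) and 2 of the 3 tested of 4 B cell markers (8.73 to 11.8 against 3.88 to 6.39 CPM), in the direction of *Cd40* and *Il16*. Without a library, these counts were 2 to 4 for NK cell, 1 to 5 for endothelial, 1 to 3 for T cell, and 0 to 2 for B cell markers, the last at 0 without prednisolone replicate 2. Skeletal muscle markers (7 genes) summed to 170.3 to 261 CPM with vehicle, 319 to 524 CPM with spironolactone, and 277 to 410.5 CPM with prednisolone, so that all 6 treated libraries lay above all vehicle libraries. Of the 6 tested, 1 rose past the threshold with prednisolone by edgeR, DESeq2, and limma-voom, *Myh1* (log2 fold change 1.07 ± 0.22, adjusted *P* = 0.0239 by edgeR), a call lost with edgeR without vehicle replicate 3 (0.0761) or prednisolone replicate 1 (0.0581), 2 (0.131), or 3 (0.0737). Monocyte markers (7 genes) summed to 1535 to 3194 CPM with vehicle, 1868 to 2202 CPM with spironolactone, and 2732 to 3587 CPM with prednisolone. By gene, 3 of the 7 were entirely lower (15.2% of all genes) and 2 entirely higher (15.1%) with spironolactone than with prednisolone. Between the drugs, edgeR called 1, DESeq2 3, and limma-voom 2. Mast cell and basophil markers (6 genes) summed to 4.99 to 6.76 CPM with vehicle, 10.4 to 36.1 CPM with spironolactone, and 8.05 to 15.3 CPM with prednisolone. Dendritic cell markers (7 genes) summed to 62.3 to 77.0, 74.2 to 130.4, and 85.4 to 108.2 CPM, and fibro-adipogenic progenitor markers (6 genes) to 486 to 670.3, 633 to 935, and 609 to 661 CPM. With spironolactone against vehicle, edgeR and limma-voom called 0 of the markers in these 3 lists and in the endothelial and skeletal muscle lists, while DESeq2 called 3 of 3 tested mast cell and basophil, 2 of 7 dendritic cell, 2 of 6 fibro-adipogenic progenitor, 4 of 6 endothelial, and 3 of 6 skeletal muscle markers. At an unadjusted *P* under 0.05 by edgeR, the counts were 3, 4, 5, 5, and 4. With prednisolone against vehicle, DESeq2 called 2 of 7 dendritic cell, 2 of 6 NK cell, and 1 of 7 monocyte markers, and edgeR and limma-voom called 0 in these lists. The part of these markers in the differences of the members was not tested.

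**Figure D5:**
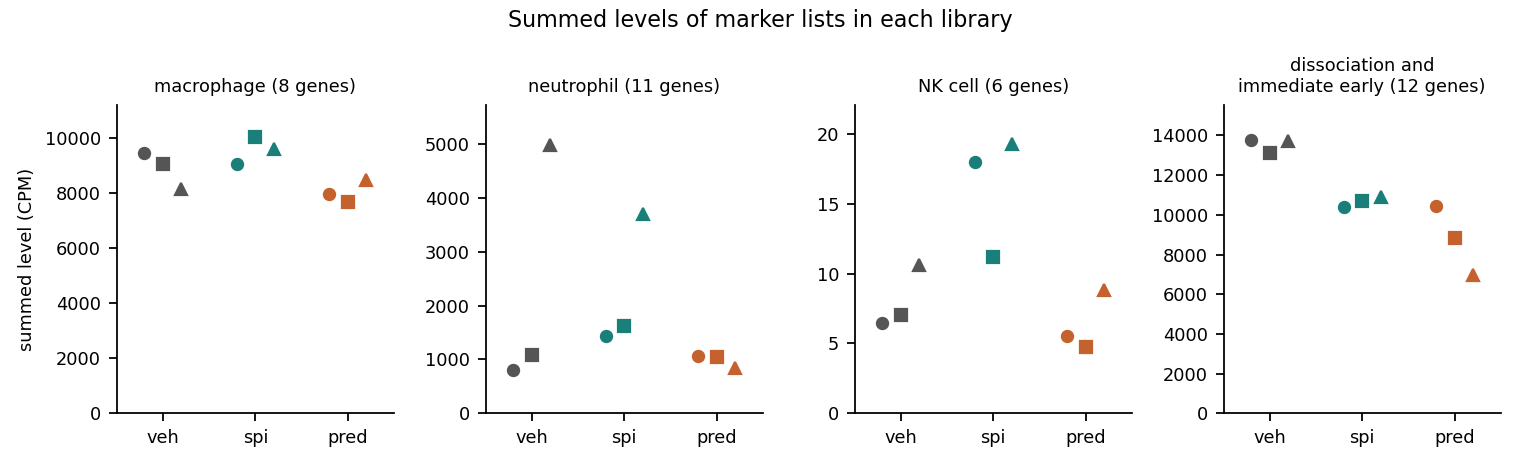
Summed level of the macrophage, neutrophil, NK cell, and immediate early marker lists (y axis, CPM, starting at 0) in each vehicle (veh), spironolactone (spi), and prednisolone (pred) library, with circles, squares, and triangles for libraries 1, 2, and 3. The immediate early sum is at 13119 CPM or above in vehicle and at 10905 CPM or below in all treated libraries, and the neutrophil sum of vehicle 3 stands apart at 4985 CPM.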

How the data were processed

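RNA-Seq counts of 9 libraries were used. Per the submitters' processing notes and the paper's methods, the authors aligned reads to mm39 with HISAT2 2.2.1 and made the deposited counts per gene with HTSeq 0.11.3. Counting used GTF files matched to UCSC mm39, and the strand setting is not given in the sources used here. Rows that name no gene held 17.2% to 21.8% of the counts and were left out. Deposited tables of the authors' DESeq2 1.32.0 comparisons (log2 fold changes and adjusted p-values) were not used.

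Genes were tested with edgeR 4.0.16 (R 4.3.3, filterByExpr with minimum count 10, TMM, glmQLFit with robust=TRUE, all 9 libraries), two-sided, with Benjamini-Hochberg adjustment over 16618 genes and a threshold of 0.05. The biological coefficient of variation was 0.170. The spread between libraries of a group exceeded counting error (chi-square per degree of freedom 19.7 to 63.8). Levels are TMM-normalized CPM. TPM used exon lengths of GENCODE vM39 on GRCm39 (at least 91.0% of counts matched). Alternatives used DESeq2 1.42.0, limma 3.58.1 (voom), other scalings, filters, and libraries. The scripts were tested on simulated data. The promoter of 1 member and 1 marker gene are not reported here.

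The members and lists were chosen with earlier results of these data known. Named genes are the members, the genes of each pathway list past the threshold in any comparison or otherwise the 2 with the smallest *P*, and the 3 genes best correlated (log2 CPM, prior count 2) with *Tnf*, *Il1b*, and *Il10*.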

Additional observations from a re-analysis of the deposited data

Results flagged for a closer look

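For 4 of the 116 tested genes of the pathway lists (3.45%, against 5.17% of all genes), the effects of the drugs differed by the direct edgeR test of spironolactone against prednisolone, which share the vehicle libraries as reference. The difference of the log2 fold changes was 0.85 for *Cd40*, 0.63 for *Il18bp*, 0.58 for *Il16*, and -0.93 for *Tnfrsf23*. Relative to vehicle, *Cd40* was at 0.38 with spironolactone and -0.48 with prednisolone, *Il18bp* at 0.18 and -0.45, *Il16* at 0.33 and -0.25, and *Tnfrsf23* at -0.21 and 0.72, and none of these 8 values passed the adjusted threshold by edgeR as fitted for the report. *Tnfrsf23* passed with prednisolone by DESeq2 (adjusted *P* = 0.0407), by edgeR without a low-count filter (0.000405), and by edgeR without vehicle replicate 3 (0.0329). All 3 libraries of 1 drug lay apart from all 3 of the other for each of the 4 genes. No member passed the same test. The explanation was not tested.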

How the results depend on the processing

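With edgeR as reported, 0 members were called in each comparison. With prednisolone against vehicle, DESeq2 and limma-voom called 1 member and the fit without a low-count filter 5, and leaving out a library gave 0 to 1. With spironolactone against vehicle, DESeq2 called 1 and the unfiltered fit 6, and leaving out a library gave 0 to 1. With spironolactone against prednisolone, DESeq2 called 2, the unfiltered fit 4, and the fit on only the 2 groups 1, and leaving out a library gave 0 to 2. The unfiltered fit included 29739 genes, and the cause of its larger counts was not tested. Over all genes, 293 were called with prednisolone (684 with DESeq2, 1019 unfiltered, 69 to 826 without a library), 3 with spironolactone (263 with DESeq2, 0 with limma-voom, 528 unfiltered, 8 with the replicate block, 0 to 34 without a library), and 859 between the drugs (1594 with DESeq2, 1940 unfiltered, 1598 with only the 2 groups, 232 to 1898 without a library). In their deviations from the group means, same-numbered libraries of different groups correlated at -0.04 to 0.15. Differently numbered libraries correlated at -0.17 to 0.04. The highest values were those of vehicle 3 with spironolactone 3 (0.15) and vehicle 1 with spironolactone 1 (0.12). Whether the replicate numbers mark pools handled together is not stated in the sources used here and was not tested. With the replicate block, 0 members were called in any comparison.

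The sign turned for the log2 fold changes that follow, and the cause was not tested. *Osm* between the drugs (0.01 as reported) was -0.0063 with DESeq2, -0.0060 with limma-voom, -0.011 in the unfiltered fit, -0.0046 with RLE, -0.031 with library totals, -0.0022 with only the 2 groups, and -0.021 with the replicate block. *Tnfsf9* with prednisolone was -0.038 with limma-voom and -0.020 with the replicate block. Between the drugs, *Nfil3* was -0.012 with library totals and *Tnfrsf12a* 0.0088 with at least 10 counts in every library. Leaving out a library gave ranges across 0 for *Il1a* (-1.15 to 0.12), *Osm* (-0.16 to 0.19), *Pim1* (-0.072 to 0.30), *Nfil3* (-0.14 to 0.28), and *Tnfrsf12a* (-0.15 to 0.12) between the drugs, for *Il1b* (-0.069 to 0.41), *Tnfsf9* (-0.19 to 0.25), and *Tnfsf10* (-0.36 to 0.089) with prednisolone, and for *Il1b* (-0.53 to 0.0079), *Il10ra* (-0.043 to 0.11), and *Tnfrsf23* (-0.46 to 0.097) with spironolactone. Over the 8 other ways of fitting, 210 of 240 member log2 fold changes kept direction and side of the threshold. The spread between 3 pools per group limits what can be resolved (SE of 0.62 for *Il1a*), and *Il6* also had as few as 91 counts in a library.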

Other observations

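As ratios of TPM, chosen after the values were seen and not tested, *Il10* over *Tnf* was 0.248, 0.166, and 0.1498 with vehicle, 0.140, 0.1602, and 0.149 with spironolactone, and 0.113, 0.0847, and 0.0594 with prednisolone. All 3 prednisolone libraries lay below the other 6. *Il1rn* over *Il1b* was 0.271 ± 0.0226 with vehicle, 0.284 ± 0.119 with spironolactone, and 0.315 ± 0.0446 with prednisolone (mean ± SD, *n* = 3 pools), and the groups overlapped, while within a group *Il1b* differed between libraries by up to 2.13 times and *Il1rn* by up to 1.91 times.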
